A study of Mus musculus with 4 samples.

Results

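The Pax-Six-Eya-Dach network is a set of transcription factors and coregulators that marks the cranial placodes, the thickened patches of ectoderm that give rise to the inner ear and other sense organs. The 9 genes described here were chosen by name, with earlier results of these data known. They are Pax2, Pax8, Six2, Six4, Eya1, Eya2, Eya3, Eya4 and Dach1, and all 9 were found among the 34866 genes of the deposited table. RNA of mouse otic vesicles, the closed epithelial cups that become the inner ear, was sequenced at embryonic day 11.5. The groups were 2 libraries of Meis2 mutant embryos (KO 1 and KO 2, titled Meis2 knockout) and 2 libraries of wild-type embryos (WT 1 and WT 2), all of strain C57/BL6. The sources used here do not state the mutant allele, the cells it acts in or the number of embryos per library. The p-values therefore reflect only how far these libraries differ, part of which may be technical.

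In this network Pax2 and Pax8 encode paired-domain factors that act early in otic specification, and Six2, Six4 and their relatives encode homeodomain factors that bind DNA at their targets. Eya proteins do not bind DNA themselves: they join these homeodomain factors as coactivators and also carry a phosphatase domain. Dach proteins, relatives of the Ski corepressors, join the same complexes. The wiring was first worked out in the fly eye, and in mice loss of Eya1 arrests the ear at the vesicle stage. Meis2, the mutated gene, encodes a TALE homeodomain factor, and the comparison asks how the level of each gene differs in its mutant.

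Values are gene-level TPM (transcript abundances corrected for length), which allow levels to be compared between genes. Sequencing depth cannot be read from TPM and is unknown for each library. Meis2 was at 73.2 TPM in KO 1 and 76.6 TPM in KO 2, against 79.0 TPM in WT 1 and 88.7 TPM in WT 2. That is a log2 difference of -0.16 (SE 0.087, adjusted p = 1.00 by limma). Which part of Meis2 was deleted is not stated, and a gene-level value can hide a missing exon, so these levels do not check the labels. The tissue label was checked against 17 markers of otic epithelium in a list that holds none of the 9 genes. All 17 were present in every library, with summed levels of 1426 and 1486 TPM in KO and 1851 and 1677 TPM in WT. The otoconial protein gene Oc90 alone gave 561 and 602 TPM of the KO sums and 912 and 724 TPM of the WT sums. RNA of other tissues was present too, including otic ganglion neurons and the mesenchyme around the vesicle. In such bulk samples, fewer cells of a type and less RNA per cell cannot be told apart.

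All 9 genes were transcribed in every library, over a wide span of levels. In KO the order of mean levels was Six2, Eya1, Dach1, Eya3, Eya2, Eya4, Pax2, Six4 and Pax8. Eya3, Eya2, Eya4, Pax2 and Six4 each overlapped their next neighbour in that order or the one before it. In WT the order was Eya1, Six2, Dach1, Eya3, Pax2, Eya2, Eya4, Six4 and Pax8. There Eya3, Pax2, Eya2 and Eya4 overlapped their neighbours, while Eya1, Six2, Dach1, Six4 and Pax8 were separate. Six2 was thus above Eya1 in both KO libraries and below it in both WT libraries, with a ratio of Six2 to Eya1 of 1.18 and 1.06 in KO and of 0.856 and 0.799 in WT. That these ratios did not overlap between the genotypes follows from Six2 being higher and Eya1 lower in both KO libraries. It is therefore no further result, and the ratios were not tested.

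**Figure D1:**
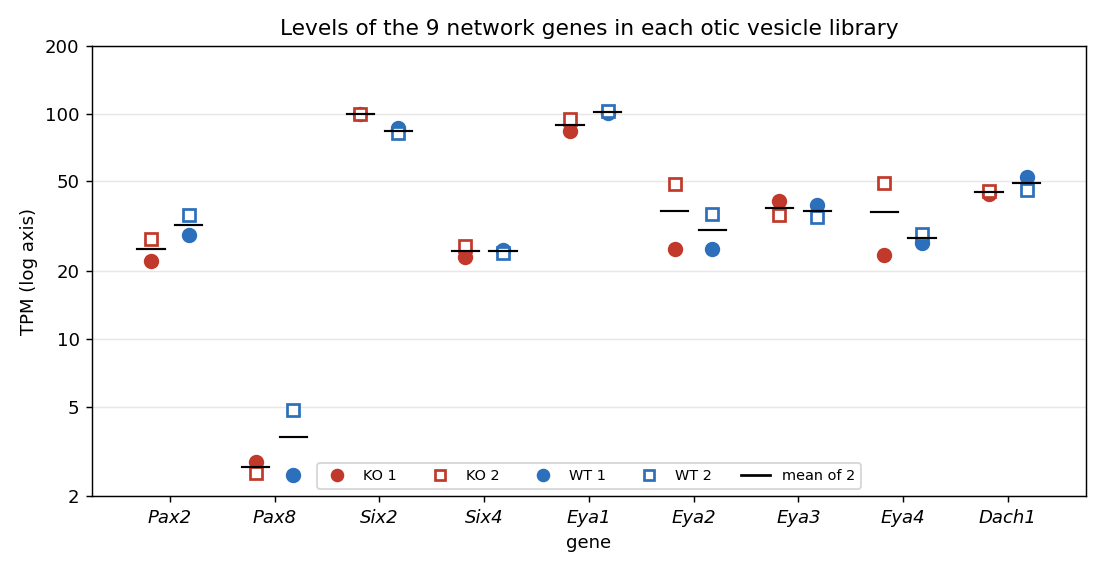
TPM (log axis) of each of the 9 genes in the 2 KO libraries (red) and the 2 WT libraries (blue), with circles for libraries numbered 1, squares for those numbered 2 and a line at each mean. Six2 lies higher in both KO libraries (99.3 and 100.05 TPM) than in both WT libraries (86.5 and 81.7 TPM), while Eya2 and Eya4 are spread widely within KO.

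No member of the network passed the threshold between KO and WT. The test was limma on log2(TPM + 1) over the 14496 genes that averaged 1 TPM or more, with Benjamini-Hochberg adjustment and a threshold of 0.05, and all 9 genes were among those tested. It called 0 of the 9 and 0% of all genes tested, and each of the 9 had an adjusted p of 1.00. At an unadjusted limma p under 0.05 there was 1 of the 9 (11.1%), Six2, beside 3.5% of all genes tested. That count ran from 0 of the 9, without a variance trend or without WT 2, to 3 of the 9 (Pax2, Eya1 and Six2) with quantile normalization or a replicate block, where 3.17% and 8.13% of all genes had such a p. KO lay wholly below WT for 3 of the 9 (33.3%), Pax2, Eya1 and Dach1, beside 10.5% of all genes tested. KO lay wholly above WT for 1 of the 9 (11.1%), Six2, beside 19.2% of all genes tested. In either direction this was 4 of the 9, beside 29.8% of all genes tested. The split of all genes depends on the scaling: it was 14.2% above and 14.5% below with median-of-ratios scaling, and 12.8% above and 15.3% below with quantile normalization, while the members' counts were 1 and 3 under both. An exact test of 2 libraries against 2 cannot give a two-sided p below 0.333. The median log2 difference of the 9 genes was -0.0018, and that of all genes tested was 0.035.

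**Figure D2:**
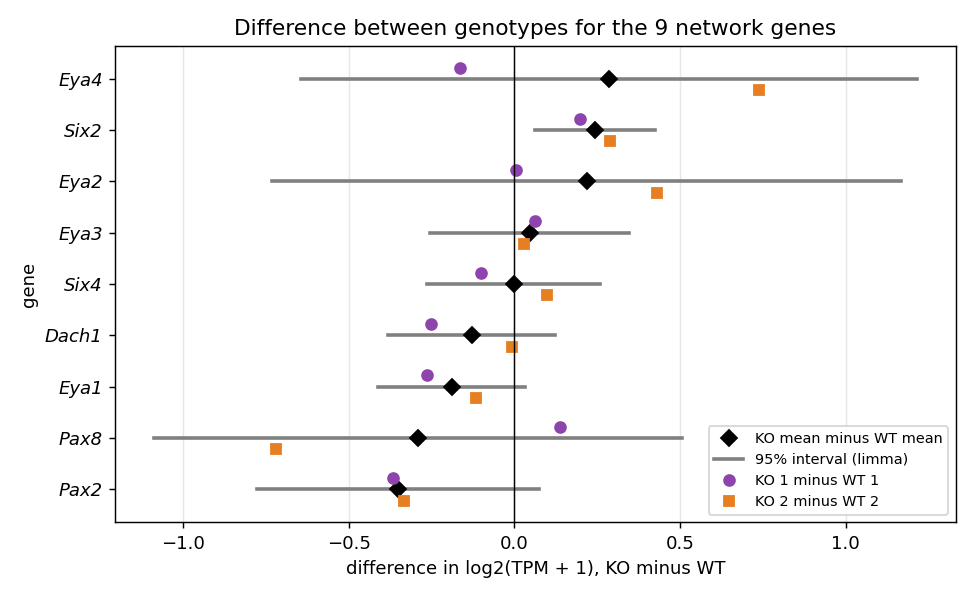
Difference in log2(TPM + 1), KO minus WT, for each gene: diamonds are the difference of means, grey lines its 95% limma interval, purple circles KO 1 minus WT 1 and orange squares KO 2 minus WT 2. The interval of Six2 (0.06 to 0.42) lies above 0, the other 8 include 0, and Eya2, Eya4 and Pax8 have the widest. These intervals are not adjusted for the number of genes tested, and without a variance trend that of Six2 includes 0 (-0.006 to 0.49).

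Of the paired-domain genes, Pax2 was lower and Pax8 was scarce. Pax2, which is needed for outgrowth of the cochlea in mice, was at 22.2 TPM in KO 1 and 27.9 TPM in KO 2, against 28.9 TPM in WT 1 and 35.5 TPM in WT 2. Both KO libraries lay below both WT libraries, but KO 2 and WT 1 were close. The mean was 25.0 ± 4.04 TPM in KO and 32.2 ± 4.62 TPM in WT (SD, n = 2 each). On the log2 scale the difference was -0.35 (SE 0.16; 95% interval -0.78 to 0.08; limma adjusted p = 1.00). KO 1 minus WT 1 gave -0.37 and KO 2 minus WT 2 gave -0.33. Pax2 (ENSMUSG00000004231.15) lies on the plus strand of chromosome 19, from 44756045 to 44837871 (GRCm38).

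Pax8, which overlaps Pax2 in early otic development and is also a factor of thyroid and kidney, was at 2.83 TPM in KO 1 and 2.54 TPM in KO 2, against 2.48 TPM in WT 1 and 4.84 TPM in WT 2. WT 2 alone was high, and the groups overlapped. Pax8 differed by -0.29 on the log2 scale (SE 0.30; 95% interval -1.09 to 0.50; limma adjusted p = 1.00), and by 0.08 without WT 2. Pax2 made up 90.2 ± 2.08% of the summed Pax2 and Pax8 TPM in KO and 90.0 ± 2.91% in WT (SD, n = 2 each), so the ratio within the pair was nearly the same in the means. Antisense transcripts are annotated at both genes (Gm20395 and 1700039E22Rik in Pax2, Gm13415 across Pax8), and the sources used here do not say whether strand was used. Reads from any stretch that a gene shares with its antisense partner might then not be told apart. Overlap of exons was not checked, and these antisense genes are not among those of the deposited table. Pax8 (ENSMUSG00000026976.15) lies on the minus strand of chromosome 2, from 24420560 to 24475599, the chromosome that also carries Meis2 (115863064 to 116065839) and Eya2.

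Between the 2 homeodomain members, Six2 was higher in KO and Six4 was near level. Six2, known for keeping kidney progenitors undifferentiated and present in head mesenchyme, was at 99.3 TPM in KO 1 and 100.05 TPM in KO 2, against 86.5 TPM in WT 1 and 81.7 TPM in WT 2. The KO libraries nearly coincided, and both stood above WT. The mean was 99.7 ± 0.508 TPM in KO and 84.1 ± 3.38 TPM in WT (SD, n = 2 each), a 1.18-fold difference on the log2(TPM + 1) scale. In log2 units this was 0.24 (SE 0.069; 95% interval 0.06 to 0.42; limma unadjusted p = 0.019, adjusted p = 1.00). KO 1 minus WT 1 gave 0.20 and KO 2 minus WT 2 gave 0.29.

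Markers of periotic mesenchyme were mostly higher in KO too. The 18 listed periotic mesenchyme genes summed to 1306 TPM in KO 1 and 908 TPM in KO 2, against 970 TPM in WT 1 and 831 TPM in WT 2. By this sum KO 2 lay below WT 1. By the mean of the centred log2(TPM + 1) values of the tested genes, which weights genes equally, the list stood at 0.38 in KO 1 and -0.020 in KO 2, against -0.032 in WT 1 and -0.33 in WT 2. On that measure both KO libraries were above both WT libraries, as for Six2, with KO 2 and WT 1 almost equal. Of the 16 mesenchyme genes tested, 15 were higher and 1 was lower in KO by the mean of log2(TPM + 1), the measure used for every list, and 61.6% of all genes tested were higher. KO lay wholly above WT for 6 of the 16 and wholly below for 1, beside 19.2% and 10.5% of all genes tested. In this list 0 passed the limma threshold and 2 had an unadjusted p under 0.05, beside 3.5% of all genes tested. None of the 18 was listed at 0 in any library. The fibrillar collagen gene Col3a1 was at 467 TPM in KO 1 and 283 TPM in KO 2, against 327 TPM in WT 1 and 280 TPM in WT 2. Twist1, a mesenchymal transcription factor, was at 180 TPM in KO 1 and 132 TPM in KO 2, against 157 TPM in WT 1 and 126 TPM in WT 2. Both genes were highest in KO 1. The part of these genes in the Six2 difference was not tested.

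Six4, whose loss alone is tolerated in mice, was at 23.0 TPM in KO 1 and 25.9 TPM in KO 2, against 24.8 TPM in WT 1 and 24.1 TPM in WT 2. Both WT values lay between the KO values. Its log2 difference was -0.0018 (SE 0.099; 95% interval -0.26 to 0.26; limma adjusted p = 1.00), an interval that leaves room for a moderate difference in either direction. Six4 (ENSMUSG00000034460.9) lies on the minus strand of chromosome 12, from 73099609 to 73113456. Six2 (ENSMUSG00000024134.11, minus strand of chromosome 17, 85684277 to 85688274) has Six3, a factor of the forebrain and eye, 54974 bases away. Six3 was at 0.0815 and 0.0948 TPM in KO and at 0.0226 and 0.146 TPM in WT, so the pair of neighbours differed widely in level.

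The upstream sequences of Six2, Pax2 and Dach1 are shown because these are the genes without overlap between the genotypes for which a promoter entry was used. Each is the 250 bases before the RefSeq start nearest the annotated gene start (GRCm38.p6), read 5′ to 3′ on the gene's strand, with capitals marking TGACAG, the core letters of the site that Meis proteins bind, or its reverse complement CTGTCA. Six2 comes from chr17:85688255-85688504 (minus strand), Pax2 from chr19:44755502-44755751 (plus strand) and Dach1 from chr14:98169766-98170015 (minus strand).
Six2: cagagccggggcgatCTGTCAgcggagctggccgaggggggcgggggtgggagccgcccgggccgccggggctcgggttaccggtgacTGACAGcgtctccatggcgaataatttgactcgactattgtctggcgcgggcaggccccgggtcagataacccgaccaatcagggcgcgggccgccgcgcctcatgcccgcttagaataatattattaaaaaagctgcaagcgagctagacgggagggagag
Pax2: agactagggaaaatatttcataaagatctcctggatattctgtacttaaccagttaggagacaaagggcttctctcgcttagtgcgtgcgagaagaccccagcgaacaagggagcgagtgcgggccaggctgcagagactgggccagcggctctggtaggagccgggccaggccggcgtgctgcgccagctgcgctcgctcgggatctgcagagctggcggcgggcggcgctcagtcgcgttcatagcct
Dach1: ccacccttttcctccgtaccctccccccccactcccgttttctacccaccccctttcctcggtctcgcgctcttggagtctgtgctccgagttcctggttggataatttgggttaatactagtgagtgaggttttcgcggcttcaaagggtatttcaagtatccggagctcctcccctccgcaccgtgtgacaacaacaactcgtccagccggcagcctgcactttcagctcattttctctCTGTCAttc
Six2 held 2 matches, at -235 (reverse strand) and -162 (forward strand) from the start, Dach1 held 1 at -9 (reverse strand), and the Pax2 window held none. The Pax2 window ends at 44755751, short of the annotated gene start at 44756045, and the bases between were not searched. The Six2 window begins at 85688255 and so overlaps the annotated gene, which runs to 85688274. Of the 7 members with an entry (Eya1 and Eya2 had none), 2 held a match. Of all 27025 promoters in the table, 15.9% held at least 1 match on either strand and 1.62% held 2 or more. A match describes these letters and does not show binding. Six2, with both matches, was higher in KO, and Dach1, with its single match, was lower in KO, neither past the threshold.

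Among the Eya coactivators the most abundant, Eya1, was lower in KO, and stood at -0.22 in log2 units relative to the median difference of all genes tested. Eya1, mutated in branchio-oto-renal syndrome in humans, was at 83.9 TPM in KO 1 and 94.4 TPM in KO 2, against 101 TPM in WT 1 and 102 TPM in WT 2. Both KO libraries lay below both WT libraries, which nearly coincided. The mean was 89.2 ± 7.41 TPM in KO and 102 ± 0.915 TPM in WT (SD, n = 2 each). Eya1 thus differed by -0.19 on the log2 scale (SE 0.084; 95% interval -0.41 to 0.03; limma adjusted p = 1.00). KO 1 minus WT 1 gave -0.26 and KO 2 minus WT 2 gave -0.11. Eya1 (ENSMUSG00000025932.14) lies on the minus strand of chromosome 1, from 14168954 to 14310235.

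Markers of otic epithelium were mostly lower in KO, like Eya1 and Pax2. Of the 17 markers, 14 were lower and 3 higher in KO, while 61.6% of all genes tested were higher. KO lay wholly below WT for 8 of the 17 (10.5% of all genes tested did). By limma 0 passed the threshold, and 3 had an unadjusted p under 0.05, beside 3.5% of all genes tested. The otoconial protein gene Oc90 was at 561 and 602 TPM in KO, against 912 and 724 TPM in WT, and the epithelial adhesion gene Epcam at 180 and 188 TPM in KO, against 210 and 198 TPM in WT. The median log2 difference of the 17 was -0.15, beside 0.035 for all genes tested. Scaling each library to the mean level of these markers shifts all its genes alike. After it, the Eya1 difference was 0.0079 and that of Dach1 was 0.07, and Pax2 stayed lower at -0.15. That scaling moved the median of all genes tested to 0.23. Relative to the median Eya1 stood at -0.22, Dach1 at -0.16 and Pax2 at -0.39 before it. By construction, these values were the same after it. The part of the epithelial markers in these differences was not tested.

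Eya2 and Eya4 differed more between the 2 KO libraries than between the genotype means. Eya2, a coactivator found in placodes and their neurons, was at 25.1 TPM in KO 1 and 48.8 TPM in KO 2, against 25.0 TPM in WT 1 and 36.0 TPM in WT 2. Both libraries numbered 2 were high and both numbered 1 were low. KO minus WT was 0.22 in log2 units (SE 0.36; 95% interval -0.73 to 1.17; limma adjusted p = 1.00), -0.25 without KO 2 and -0.04 without WT 1. Eya4, a gene of hereditary hearing loss in humans, was at 23.6 TPM in KO 1 and 49.4 TPM in KO 2, against 26.6 TPM in WT 1 and 29.2 TPM in WT 2. KO 2 alone stood apart. KO minus WT was 0.29 in log2 units (SE 0.35; 95% interval -0.64 to 1.22; limma adjusted p = 1.00), -0.23 without KO 2 and 0.80 without KO 1. By the range of log2(TPM + 1) over the libraries these were the most variable members, with 1.03 for Eya4 and 0.94 for Eya2. A larger range was found in 6.9% and 8.3% of all genes tested.

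The summed level of neuronal markers was likewise highest in KO 2 and next in WT 2. Of the 13 genes tested, 10 had that order, and the share of all genes with it was not counted. Deviations of same-numbered libraries from their group means correlated at 0.42 across all genes tested, so such an order need not be particular to neurons. The 14 listed genes of otic ganglion neurons summed to 315 TPM in KO 1 and 946 TPM in KO 2, against 385 TPM in WT 1 and 649 TPM in WT 2, and none was listed at 0. Tubb3, a tubulin of neurons, was at 85.2 TPM in KO 1 and 296 TPM in KO 2, against 109 TPM in WT 1 and 211 TPM in WT 2. Nefm, a neurofilament gene, was at 43.8 TPM in KO 1 and 143 TPM in KO 2, against 58.2 TPM in WT 1 and 78.3 TPM in WT 2. Eya4 had the same order of libraries as this sum, with KO 2 highest and KO 1 lowest, and Eya2 was also highest in KO 2 and next in WT 2. Among the 13 neuron genes that passed the filter, 10 were higher and 3 lower in KO by the mean of log2(TPM + 1). Of all genes tested, 61.6% were higher. Of the neuron genes 0 passed the limma threshold and 1 had an unadjusted p under 0.05, beside 3.5% of all genes tested. The part of neuronal RNA in the Eya2 and Eya4 values was not tested. Of 9256 coding genes averaging 10 TPM or more, the nearest to Eya2 by Euclidean distance between centred log2 profiles over the 4 libraries were Itpk1 (0.043), Spock2 (0.079) and Dmpk (0.087). The nearest to Eya4 were Vps39 (0.11), Chek2 (0.11) and Adam11 (0.14). With 4 libraries, such likeness describes these profiles only. The marker lists of hindbrain, neural crest and glia, skeletal muscle, endothelium, erythroid cells and macrophages, shown beside the network genes in the plot of profiles, had 0 genes past the limma threshold and 0 to 2 each at an unadjusted p under 0.05. Higher in KO were 7 of 8 endothelial, 6 of 8 neural crest and glial and 6 of 9 macrophage genes tested. So were 3 of 5 hindbrain genes, beside 61.6% of all genes tested. Lower in KO by the mean of log2(TPM + 1) were 8 of 10 erythroid and 4 of 4 skeletal muscle genes tested. The erythroid sums were 13506 and 15363 TPM in KO, against 10866 TPM in WT 1 and 26011 TPM in WT 2. KO lay wholly below WT for 0 of the 10 erythroid and 2 of the 4 muscle genes, beside 10.5% of all genes tested. It lay wholly above for 1 erythroid and 0 muscle genes, beside 19.2%. Another 5 listed muscle genes were under the filter. By centred mean KO 1 was highest, as for mesenchyme, in hindbrain (0.32), neural crest and glia (0.31), endothelium (0.22) and macrophages (0.36). The hindbrain value rests on 5 of 12 listed genes, as 7 were under the filter. Fabp7 is in both the hindbrain and the neural crest and glia lists.

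**Figure D3:**
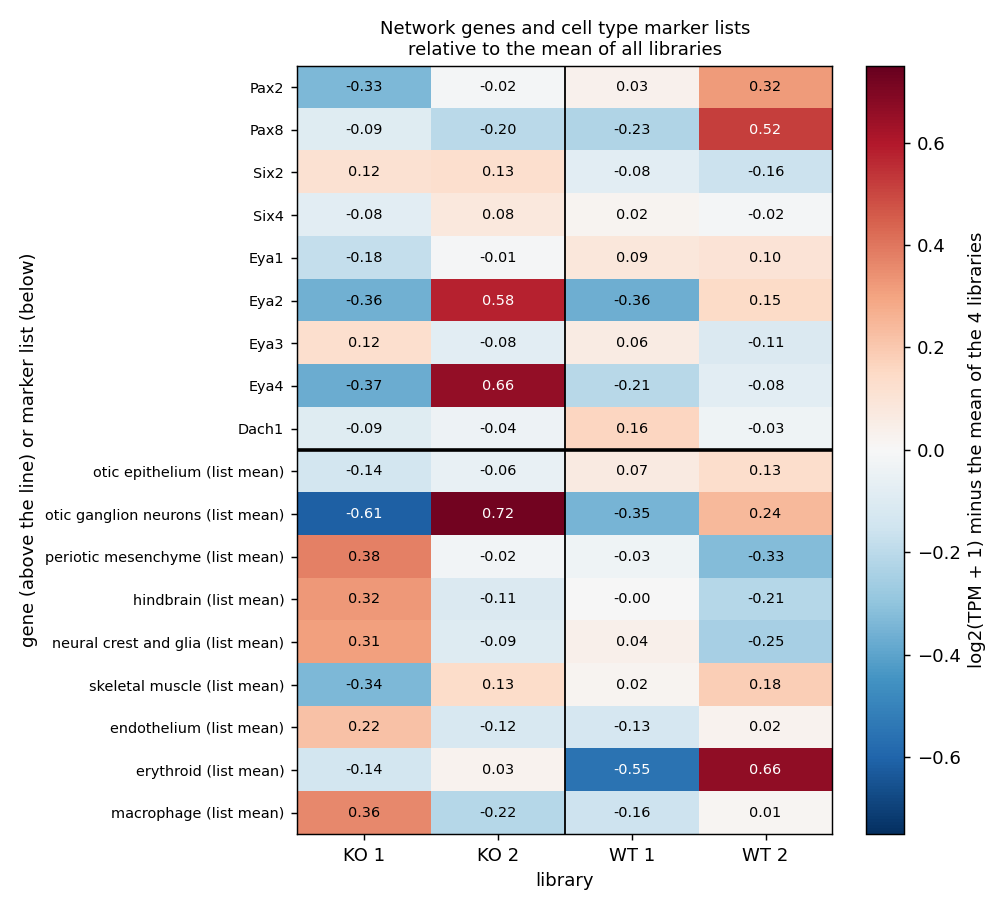
Colour and number give log2(TPM + 1) minus the mean of the 4 libraries, for each of the 9 genes (above the line) and as the mean over the tested genes of each marker list (below it), with KO libraries on the left and WT libraries on the right. Eya2 and Eya4 stand highest in KO 2 (0.58 and 0.66), as does the neuron list (0.72), and Six2 is the gene with both KO libraries above and both WT libraries below the mean.

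Eya3, the most broadly expressed Eya gene in mouse tissues, was at 41.0 TPM in KO 1 and 35.5 TPM in KO 2, against 39.2 TPM in WT 1 and 34.8 TPM in WT 2. The groups overlapped, and both libraries numbered 1 were above both numbered 2. Eya3 differed by 0.05 on the log2 scale (SE 0.11; 95% interval -0.25 to 0.35; limma adjusted p = 1.00). The summed Eya level was 174 TPM in KO 1 and 228 TPM in KO 2, against 192 TPM in WT 1 and 202 TPM in WT 2, so the WT sums lay between the KO sums. Eya1 held 48.4% and 41.4% of that sum in KO, against 52.7% and 50.6% in WT, and was the largest part in all 4 libraries. Its share was lower in both KO libraries than in both WT libraries, while the shares of the other 3 Eya genes overlapped. The lower Eya1 level in KO enters this share, as do the high Eya2 and Eya4 levels of KO 2. The share is therefore no independent result, and it was not tested. Eya2 (ENSMUSG00000017897.18) lies on chromosome 2 from 165595032 to 165771727 and Eya3 (ENSMUSG00000028886.15) on chromosome 4 from 132638987 to 132724765, both on the plus strand. Eya4 (ENSMUSG00000010461.15) lies on the minus strand of chromosome 10, from 23102963 to 23350786.

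**Figure D4:**
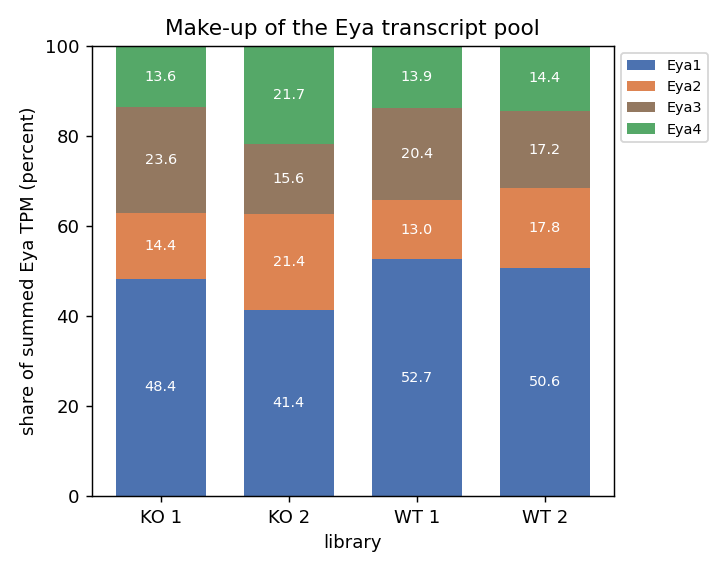
Stacked bars give the share of each Eya gene in the summed Eya TPM (percent) of each library, with KO 1 and KO 2 left of WT 1 and WT 2. The Eya1 share is 48.4% and 41.4% in KO and 52.7% and 50.6% in WT, and the Eya4 share is largest in KO 2 (21.7%).

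Dach1, the corepressor of the network, was at 43.9 TPM in KO 1 and 45.5 TPM in KO 2, against 52.5 TPM in WT 1 and 45.8 TPM in WT 2. KO lay below WT in TPM as deposited, but KO 2 and WT 2 were almost equal. The mean was 44.7 ± 1.10 TPM in KO and 49.1 ± 4.73 TPM in WT (SD, n = 2 each). Dach1 thus differed by -0.13 on the log2 scale (SE 0.096; 95% interval -0.38 to 0.12; limma adjusted p = 1.00), and by -0.03 without WT 1. KO 1 minus WT 1 gave -0.25 and KO 2 minus WT 2 gave -0.0084. Dach1 (ENSMUSG00000055639.16) lies on the minus strand of chromosome 14, from 97786853 to 98169765. Its relative Dach2 was at 14.9 and 12.8 TPM in KO and at 15.9 and 12.5 TPM in WT, with overlapping groups.

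The other genes of the families and their partners gave no call either. Of the 4 genes Six3, Six5, Six6 and Dach2, 2 were tested, 1 of them higher and 1 lower in KO, with 0 past the limma threshold and 0 at an unadjusted p under 0.05. Six3 and Six6 were under the filter. Six5 was at 26.0 and 23.9 TPM in KO, against 22.3 and 21.5 TPM in WT, a log2 difference of 0.18 (SE 0.093). Of the 7 other Pax genes 3 passed the filter, all at low levels, with 0 past the threshold and 0 at an unadjusted limma p under 0.05. Pax9, a factor of pharyngeal pouches, was at 2.21 and 0.866 TPM in KO, against 2.29 and 3.62 TPM in WT. Pax1, its close relative, was at 3.11 and 0.917 TPM in KO, against 1.31 and 0.482 TPM in WT, with overlap. Pax3, a factor of the dorsal neural tube and crest, was at 1.44 and 0.760 TPM in KO, against 1.37 and 0.937 TPM in WT.

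Of 13 tested partners of the network's proteins, 10 were higher and 3 lower in KO, beside 61.6% of all genes tested higher. Of these partners 0 passed the threshold and 0 had an unadjusted limma p under 0.05, beside 3.5% of all genes tested. Their median log2 difference was 0.07, beside 0.035 for all genes tested. The Groucho family corepressors differed in direction. Tle4 was at 17.8 and 17.4 TPM in KO, against 21.5 and 20.2 TPM in WT. Tle1 was at 54.0 and 45.9 TPM in KO, against 42.8 and 41.9 TPM in WT, and the groups did not overlap for either gene. Tle2, of the same family, was at 22.6 and 31.0 TPM in KO, against 23.6 and 21.8 TPM in WT, with overlap. The histone deacetylase gene Hdac3 was at 125 and 119 TPM in KO, against 118 and 110 TPM in WT, with a narrow gap between the groups.

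Of 15 tested placode inducers and competence factors, 8 were higher and 7 lower in KO, beside 61.6% of all genes tested higher. In this list 0 passed the threshold. An unadjusted limma p under 0.05 was found for 2 (1 in each direction), beside 3.5% of all genes tested. Gata3, a zinc finger factor of the otic epithelium, was at 32.9 and 38.9 TPM in KO, against 45.4 and 46.7 TPM in WT (log2 difference -0.36, SE 0.11). Fgfr2, the receptor for otic Fgf3 and Fgf10, was at 76.1 and 79.6 TPM in KO, against 68.5 and 66.5 TPM in WT (log2 difference 0.20, SE 0.070). Both were without overlap, in opposite directions. The ligand gene Fgf8 was at 3.51 and 5.79 TPM in KO, against 2.82 and 2.90 TPM in WT, and Etv4, a target of FGF signalling, at 50.5 and 65.1 TPM in KO, against 52.9 and 40.8 TPM in WT.

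Of 13 tested genes described downstream of the network in the ear, 7 were higher and 6 lower in KO, beside 61.6% of all genes tested higher. In this list 0 passed the threshold, and the median log2 difference was 0.0075. An unadjusted limma p under 0.05 was found for 2, both lower, beside 3.5% of all genes tested. These were Myc and Gata3, and Gata3 is also in the list of placode inducers. KO lay wholly below WT for 5 of the 13 and wholly above for 0, beside 10.5% and 19.2% of all genes tested. The proliferation factor gene Myc was at 9.99 and 9.32 TPM in KO, against 17.9 and 18.5 TPM in WT, a log2 difference of -0.85 (SE 0.11; limma adjusted p = 1.00). Both KO values were far below both WT values. Myc is named for the smallest limma p of a list chosen with earlier results known. Its difference is therefore not set against those of the 9 network genes. Otx1, a factor of the lateral canal, was at 12.4 and 17.4 TPM in KO, against 18.6 and 21.4 TPM in WT, and the guidance gene Ntn1 at 6.32 and 4.29 TPM in KO, against 7.57 and 7.53 TPM in WT.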

How the data were processed

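The authors deposited gene-level TPM, and per the submitters' processing notes Salmon 0.9.1 and build GRCm38 were used. The sources used here do not state the annotation release or how transcripts were summed to genes. Each library summed to 1000000 TPM, and depth is unknown, so no counting interval is given. Gene IDs were matched by number to symbols (34582 of 34866; all 9 members with the same version), and coordinates are those of GENCODE M21 on GRCm38. Promoters are from RefSeq (GRCm38.p6).

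Genes averaging 1 TPM or more were tested for genotype alone with limma 3.58.1 (R 4.3.3) on log2(TPM + 1), using a variance trend. Its two-sided p-values were adjusted by the Benjamini-Hochberg method, with a threshold of 0.05. Fold changes on this scale understate changes of low genes. The fit was also run on simulated data, with independent noise and variances drawn from the fitted model itself. That cannot show how it behaves where libraries deviate together, as the same-numbered ones did here. The members and gene lists were chosen with earlier results of these data known. Genes named besides the 9 and Meis2 were, per network list, the 4 with the smallest p; for otic epithelium, neurons and mesenchyme, the 2 most abundant; and the 3 nearest profiles of the 2 most variable members. Six3, Six6 and the antisense genes were named after their values were seen. Tle5 had no match by symbol. A gene of the listed families is not reported here. Alternatives were other pseudocounts, filters, scalings and variance settings, a replicate block and leaving out each library.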

Additional observations from a re-analysis of the deposited data

How the results depend on the processing

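Under the 14 alternatives 0 of the 9 network genes were called, with adjusted p from 0.247 (Six2, otic epithelium scaling) upwards. Over all genes, limma called 0 with all 4 libraries under every setting, 2 without KO 1 and 10 without KO 2, so the counts ran from 0 to 10 when a library was left out. The fit as reported had 507 genes at an unadjusted p under 0.05. Apart from otic epithelium scaling and left-out libraries, each member kept its direction. That scaling gave 2 of the 9 without overlap in place of 4, beside 64.5% of all genes (62.7% above, 1.81% below), and turned Eya1 to 0.0079, Dach1 to 0.068 and Six4 to 0.20, while the median of all genes moved to 0.23; relative to that median the differences were as before by construction. With a library left out, the log2 difference ran from -0.25 to 0.69 for Eya2, -0.23 to 0.80 for Eya4, -0.056 to 0.15 for Eya3, -0.082 to 0.079 for Six4 and -0.67 to 0.081 for Pax8. It kept its direction for Pax2 (-0.51 to -0.19), Eya1 (-0.27 to -0.11), Dach1 (-0.23 to -0.03) and Six2 (0.20 to 0.28). A lone library was assumed to vary like the pair of the other genotype. With a mean of at least 5 TPM, Pax8 was not tested. The same-numbered libraries share only a number: their deviations from the group means correlated at 0.42 across genes, with 2 pairs. The replicate block left 0 genes and 0 of the 9 called, with 1178 genes and 3 of the 9 at an unadjusted p under 0.05. Six2 had an unadjusted p of 0.054 without a variance trend, and 0.042 to 0.10 with a library left out. Unknown depth limits low genes such as Pax8.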
